A study of Mus musculus with 6 samples.

Results

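Cultures of microglia, the resident macrophages of the brain, can hold RNA of neurons. Here 34 genes known as neuronal were followed in such cultures, chosen by name as a list and matched to the files by Entrez identifier. The list was drawn up with earlier results of these data known. All 34 were found among the 36528 gene models in the files. The study sequenced polyadenylated RNA of mouse brain microglia kept in vitro, in 3 groups of 2 libraries. The groups were untreated wild type (WT_untreated), untreated cells labelled as knocked out for the ubiquitin ligase gene Cop1 (Loxp_untreated, here Cop1 KO), and wild type given lipopolysaccharide (WT_LPS, here LPS), a bacterial cell-wall component that activates macrophages. All share the tissue label brain. The promoter or agent that removed the floxed Cop1 sequence, the dose and time of LPS, the strain and age of the animals, and any pooling of animals are not stated in the labels. Nothing in the labels says that the 2 libraries of a group came from separate cultures, so every p-value rests on a spread that may be technical.

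Neurons are told from glia by a shared set of transcripts. They carry a specialised cytoskeleton that supports axons and dendrites, a machinery that fuses vesicles with the membrane to release transmitter, RNA-binding proteins that set neuronal splicing, and adhesion molecules that guide axons. Neurons that release GABA, the main inhibitory transmitter, use glutamate decarboxylases and develop under Dlx homeobox factors. Outside neurons, many of these genes are held silent by the repressor REST, which binds a DNA element called RE1.

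Library totals lay between 20568144 and 22553708 counts. Levels are given as CPM, counts per 1000000 scaled with TMM factors, and, where genes are compared with each other, as the authors' nRPKM, which also divides by gene length. Cop1 itself stood at 12.7 and 11.5 CPM in untreated wild type, 8.05 and 9.22 in Cop1 KO and 23.4 and 27.1 with LPS. Reads from exons outside a deleted part would remain, so this checks the labels only in part. Of 12 microglia markers none was at 0 in any library, and their summed level was 7680 and 7720 CPM in untreated wild type, 12000 in each Cop1 KO library, and 6320 and 6430 with LPS.

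The neuron genes made up a small part of the untreated wild-type RNA. Their summed level there was 328 and 333 CPM, or 391.2 (95% Wilson interval 382.9 to 399.7) and 395.7 (387.6 to 404.0) per 1000000 unscaled counts, intervals that cover counting error only. Nrcam and Ncam1, both adhesion genes, held 29.2% and 19.5% of the counts of the 34 genes, and Map2 held 11%. Per length, Gap43, which encodes a growth cone protein, was the most abundant, at 8.29 ± 0.238 nRPKM (SD, n = 2), followed by Nrcam at 7.67 ± 0.133, and these neighbours did not overlap. Tubb3, the neuronal beta-tubulin gene, followed at 5.68 ± 0.0155, Ncam1 at 3.18 ± 0.0126, and Scg2, a secretory granule gene, at 3 ± 0.138. At the low end Rbfox3, whose product is the mature-neuron marker NeuN, stood at 0.1 ± 0.0136, the neurofilament gene Nefl at 0.0656 ± 0.0395 and Cntn2 at 0.0143 ± 0.00245. Of the 34 genes 22 lay under 1 nRPKM in untreated wild type, and none had 0 counts over both libraries.

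**Figure D1:**
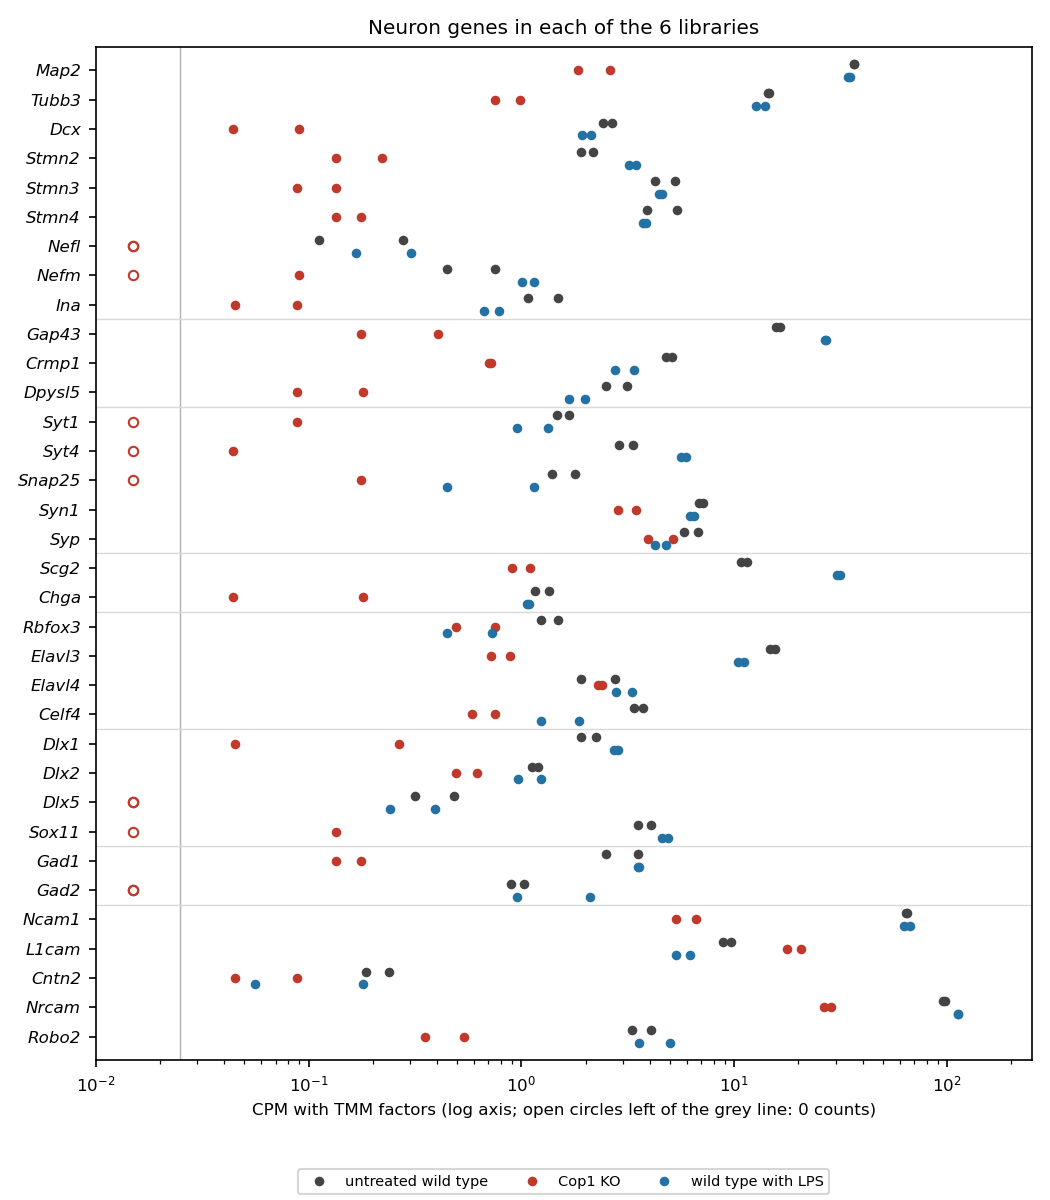
Level of each of the 34 neuron genes in CPM on a log axis, 1 point per library (dark grey untreated wild type, red Cop1 KO, blue LPS), ordered by role, with libraries at 0 counts drawn as open circles left of the grey line. The red points lie left of the dark grey ones for 32 genes, overlap them for Elavl4 and lie right of them for L1cam; over all genes tested, Cop1 KO libraries lay apart from wild type on the lower side for 39.5% and on the higher side for 37.9%.

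The promoter of Syn1, the synapsin gene, is a textbook target of REST, and promoter windows were searched for RE1. This search was made with the Cop1 KO results known, and control by REST was not tested. RefSeq promoter windows of 300 bases (250 before to 50 after the start, GRCm38.p6) were at hand for 24 of the 34 genes. The motif searched was TTCAGCACC followed by 2 free bases and GGACAG, on both strands, with up to 3 of its 15 fixed letters mismatched. It was found in windows of 3 of these 24 genes (Syn1, Gad2 and Robo2), and in 365 of 27025 genes with a window, or 1.35%. The 3 windows are shown with the matched letters in capitals, and a window of L1cam, the gene that rose in Cop1 KO, is shown without a match. Most of the 24 genes had no match either, among them Map2, Tubb3, Gad1 and Sox11, which were called lower in Cop1 KO. A match describes letters and is neither a site nor a cause, and the L1cam window says nothing about sites elsewhere. Each is written 5′ to 3′ along the gene's strand.
Syn1, chrX:20920869-20921168, minus strand, 1 mismatch: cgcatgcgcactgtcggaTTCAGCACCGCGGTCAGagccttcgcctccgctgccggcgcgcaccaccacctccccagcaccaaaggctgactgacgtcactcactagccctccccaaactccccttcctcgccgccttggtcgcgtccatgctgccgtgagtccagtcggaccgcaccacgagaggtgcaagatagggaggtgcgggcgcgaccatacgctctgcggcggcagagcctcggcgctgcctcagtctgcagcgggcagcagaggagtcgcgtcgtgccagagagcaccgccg
Gad2, chr2:22622077-22622376, plus strand, 3 mismatches: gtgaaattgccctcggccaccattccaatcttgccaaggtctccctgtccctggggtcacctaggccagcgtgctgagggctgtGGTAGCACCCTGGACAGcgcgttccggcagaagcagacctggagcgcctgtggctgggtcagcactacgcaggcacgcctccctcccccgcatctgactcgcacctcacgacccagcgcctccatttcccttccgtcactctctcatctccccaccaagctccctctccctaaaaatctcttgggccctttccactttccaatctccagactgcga
Robo2, chr16:75447244-75447543, minus strand, 2 mismatches: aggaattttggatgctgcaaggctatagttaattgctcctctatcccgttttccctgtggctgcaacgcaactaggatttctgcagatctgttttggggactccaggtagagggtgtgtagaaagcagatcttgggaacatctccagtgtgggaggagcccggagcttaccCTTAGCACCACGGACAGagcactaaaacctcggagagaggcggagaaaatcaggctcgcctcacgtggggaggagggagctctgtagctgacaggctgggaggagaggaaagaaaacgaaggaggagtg
L1cam, chrX:73880785-73881084, minus strand, no match: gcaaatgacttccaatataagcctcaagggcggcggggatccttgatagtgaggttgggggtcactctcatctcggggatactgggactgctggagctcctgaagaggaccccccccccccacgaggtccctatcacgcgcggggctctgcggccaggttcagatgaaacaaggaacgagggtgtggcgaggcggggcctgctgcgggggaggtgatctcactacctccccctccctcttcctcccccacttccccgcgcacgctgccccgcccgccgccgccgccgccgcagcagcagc
Of the genes with a match, Syn1 and Gad2 went from 6.82 and 7.15 CPM to 2.83 and 3.44, and from 1.03 and 0.894 CPM to 0 in both Cop1 KO libraries. What remained in Cop1 KO thus differed between them, at 44.9% of the wild-type level for Syn1, 12.1% for Robo2 and 0 counts for Gad2.

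The first comparison asked how the neuron genes differed between Cop1 KO and wild type, both untreated. Values with an SE here and later are log2 fold changes, called log2 changes. Nearly all genes were lower in the knockout, many of them to a few counts, while L1cam was higher and Elavl4 did not differ detectably. The summed level went from 328 and 333 CPM to 67.5 and 76.8. Without Nrcam and Ncam1 it went from 169 and 170 CPM to 35.8 and 41.9. In no pair of libraries across the groups did the sums overlap. Of the 34 genes, 31 passed the filter on low counts. The edgeR quasi-likelihood test (Benjamini-Hochberg adjusted p below 0.05 over all 15585 genes tested) called 29 of these lower, 1 higher and left 1 uncalled. Over all genes tested, 30.3% were called lower and 28.1% higher. Because the list was drawn up with earlier results known, these shares describe the members and do not test the list. At least 4-fold lower were 24 of the 31, against 9.91% of all genes, and none was higher by as much, against 0.629%. Among the 31, both knockout libraries lay below both wild-type libraries for 29 and above for 1, beside 39.5% and 37.9% of all genes. The members' median log2 fold change was −3.69, and it was the same with Gad2 placed at its bound, beside −0.01 over all genes. Relative to all genes it was −3.68 with TMM factors, median-of-ratios factors and library size only. A change of scaling shifts all genes alike, so this equality was fixed beforehand and is no check. Under each scaling 29 members were called lower and 1 higher. Shares of all genes called higher and lower moved to 35.2% and 25.1% (median-of-ratios factors), and to 14.9% and 46.2% (library size only). Genes high in wild type alone pass such a filter more easily, so the filter was also dropped: 31 of the 34 were then called lower and 1 higher, beside 20.7% and 18.2% of all genes. In bulk RNA, fewer cells that hold these RNAs, neurons or others, and less of these RNAs per cell cannot be told apart.

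Markers of other non-microglial brain cells moved in the same libraries, where 30.3% of all genes were called lower and 28.1% higher. Of 12 astrocyte markers 11 were called lower and 1 higher in Cop1 KO, and their sum went from 1100 CPM in each untreated wild-type library to 78.2 and 80.4, with no marker at 0. The astrocyte filament gene Gfap went from 314 to 5.86 CPM, a log2 change of −5.74 (SE 0.09). Of 9 tested oligodendrocyte lineage markers 6 were lower, 4 of them by at least 4-fold, and 2 higher. The sum of the 10 listed went from 292 and 297 to 202 and 205 CPM, with 1 marker at 0 in each knockout library. Most of the knockout sum came from the 2 higher genes, Mbp at 88.9 and 92.7 CPM and Cnp at 73.4 and 69.3. Olig1 went from 77.1 and 74.6 to 5.44 and 4.99 CPM. All 8 radial glia and progenitor markers were called lower, 4 of them by at least 4-fold. Their sum went from 1800 and 1780 to 1380 and 1360 CPM. The 3 most abundant changed little, with Vim at −0.30 (SE 0.03), Nes at −0.48 (SE 0.03) and Notch1 at −0.10 (SE 0.04). Of the 12 microglia markers 10 were called higher and 0 lower, with a median log2 change of 0.52. Endothelial and mural markers had 4 of 5 higher, and fibroblast markers 5 higher and 2 lower of 7. The part of these cell types in the result was not tested. Within a library, where scaling plays no part, counts of the 34 neuron genes were 0.297 and 0.301 per astrocyte marker count in untreated wild type and 0.84 and 0.982 in Cop1 KO. Nrcam, L1cam, Syp and Syn1, chosen after their values were seen, were then left out. This ratio was then 0.19 and 0.193 in wild type and 0.207 and 0.246 in Cop1 KO. In Cop1 KO 370 of 1501 and 436 of 1740 neuron counts were left, against 5288 of 8277 and 5720 of 8925 in wild type. The larger drop in Cop1 KO thus followed from the choice of genes. The median log2 change was −3.69 for the tested neuron genes, these 4 included, and −3.72 for astrocyte markers. Per oligodendrocyte lineage count without Mbp, neuron counts went from 1.41 and 1.44 to 0.581 and 0.7. Much of this rests on Cnp, which held 1632 of 2585 and 1571 of 2486 of those lineage counts in Cop1 KO. In untreated wild type Cnp held 1497 of 5885 and 1583 of 6178. Per microglia marker count, neuron counts went from 0.0425 and 0.0433 to 0.00562 and 0.00642.

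**Figure D2:**
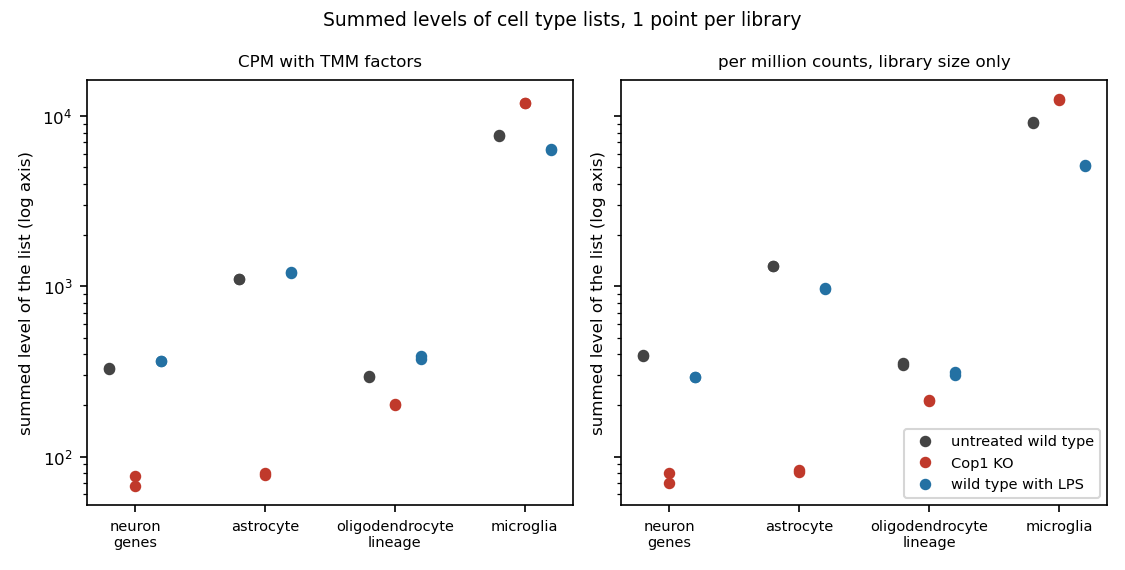
Summed level of the 34 neuron genes and of astrocyte, oligodendrocyte lineage and microglia markers on a log axis, 1 point per library, with TMM factors (left) and per 1000000 unscaled counts (right). In Cop1 KO the neuron sum stood at 67.5 and 76.8 CPM, below 328 and 333 in untreated wild type, while with LPS it lay above wild type on the left (362 and 364) and below it on the right (291.5 and 293.2).

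All 8 tested cytoskeleton genes fell by at least 4-fold in Cop1 KO, beside 9.91% of all genes. Map2, which encodes a microtubule-associated protein of dendrites (chromosome 1, 66175202 to 66442583, RefSeq on GRCm38), had 36.5 and 36.3 CPM in wild type and 1.84 and 2.6 in the knockout. The groups lay far apart, a log2 change of −4.03 on the log2 scale (SE 0.16, adjusted p = 6e-35). Tubb3 (chromosome 8, 123411553 to 123422015) went from 14.5 and 14.4 to 0.99 and 0.75 CPM, with a log2 change of −4.05 (SE 0.25, adjusted p = 7.5e-27). The stathmins, which destabilise microtubules, fell likewise, with log2 changes of −5.34 (SE 0.68) for Stmn3, −4.84 (SE 0.59) for Stmn4 and −3.47 (SE 0.56) for Stmn2. Dcx, the doublecortin gene of migrating young neurons, kept 3 of its counts in the knockout against 132, a ratio of 37.9 (95% counting interval 12.7 to 186).

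Filament genes were rarer. Ina, the alpha-internexin gene, had 67 wild-type counts and 3 in Cop1 KO, a ratio of 19.3 (6.31 to 95.8), and the neurofilament gene Nefm had 31 and 2, a ratio of 13.4 (3.4 to 115). Nefl did not pass the filter. It had 10 counts in wild type and 0 in the knockout, at least 2.87-fold lower against a floor of 3 counts over the group (lower 95% counting limit 1.38). In GENCODE M21 the exons of Nefl and Nefm overlap on opposite strands, over 32.8% and 19.2% of their bases, while their RefSeq models share no base. Which annotation was used for counting is not stated, and an unstranded kit does not separate reads from such an overlap.

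Growth cone genes all fell by at least 4-fold, beside 9.91% of all genes. Gap43 (chromosome 16, 42248552 to 42340651) had 15.7 and 16.4 CPM in wild type and 0.405 and 0.176 in the knockout, a log2 change of −5.76 (SE 0.41, adjusted p = 3.4e-30). Dpysl5 and Crmp1, genes of the collapsin response mediator family that links guidance cues to the cytoskeleton, had log2 changes of −4.34 (SE 0.64) and −2.79 (SE 0.29). Gap43 counts per Tubb3 count were 1.08 and 1.13 in wild type and 0.409 and 0.235 in the knockout, from 9 and 4 Gap43 counts there.

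Vesicle release genes split by how much remained. Syt4 and Syt1, synaptotagmins that act in calcium-dependent vesicle fusion, kept 1 and 2 counts in the knockout against 162 and 82, ratios of 140 (95% counting interval 24.7 to 5550) and 35.4 (9.48 to 297). Snap25, a gene of the membrane fusion complex, had 1.39 and 1.79 CPM in wild type and 0 and 0.176 in the knockout (log2 change −4.08, SE 0.86, adjusted p = 2.6e-08). Syn1, which tethers vesicles, fell by 1.15 (SE 0.16, adjusted p = 1.2e-08), so that 44.9% of its wild-type level remained. Syp, which encodes the vesicle membrane protein synaptophysin, had 6.74 and 5.78 CPM in wild type and 3.91 and 5.16 in the knockout, with 72.5% remaining. Its log2 change of −0.46 (SE 0.16, adjusted p = 0.01) was not called when untreated replicate 1 (log2 change −0.35, adjusted p = 0.14) or Cop1 KO replicate 1 (−0.27, 0.21) was left out, with DESeq2 or on the authors' nRPKM scale. Over all alternatives the adjusted p of Syp ran from 0.00031 to 0.21. In GENCODE M21, 16.8% of its exonic bases overlap Gm14703 on the opposite strand.

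Both granule genes were called lower, beside 30.3% of all genes. Scg2, the secretogranin II gene (chromosome 1, 79434366 to 79440026), had 10.8 and 11.5 CPM in wild type and 0.9 and 1.1 in the knockout, a log2 change of −3.47 (SE 0.23, adjusted p = 3.5e-24). Chga, which encodes chromogranin A, fell by 3.42 (SE 0.73) on 65 and 5 counts. In each case the libraries of the groups lay clearly apart.

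Of the 4 RNA-binding genes 3 were called lower, beside 30.3% of all genes, and 1 was uncalled. Elavl3 and Elavl4 encode neuronal Hu proteins that stabilise and splice transcripts. Elavl3 had 14.7 and 15.5 CPM in untreated wild type and 0.72 and 0.882 in Cop1 KO, a log2 change of −4.23 (SE 0.25, adjusted p = 1.6e-27). Elavl4 (chromosome 4, 110203737 to 110351939) had 1.9 and 2.76 CPM in wild type, 2.29 and 2.38 in the knockout, and 3.3 and 2.78 with LPS. It was the gene whose wild-type and knockout libraries overlapped, and the interval of its log2 fold change ran from −0.45 to 0.45. Celf4, a gene of another splicing and translation regulator, fell by 2.4 (SE 0.32, adjusted p = 2e-10). Rbfox3 had 1.23 and 1.49 CPM in wild type and 0.495 and 0.75 in the knockout (log2 change −1.12, SE 0.38, adjusted p = 0.0076), on 71 and 28 counts. The Rbfox3 call was lost on leaving out Cop1 KO replicate 1 (−0.85, adjusted p = 0.11) or the second untreated library (−0.97, 0.091), with DESeq2 and on the nRPKM scale, within 0.0017 to 0.12 over all alternatives.

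The 4 tested genes of GABA neurons were called lower, beside 30.3% of all genes. Dlx1 and Dlx2 lie next to each other on chromosome 2 (71528113 to 71533981 and 71543408 to 71546754) and both encode homeobox factors of interneuron precursors. Dlx1 had 1.9 and 2.24 CPM in wild type and 0.045 and 0.265 in the knockout (log2 change −3.69, SE 0.61, adjusted p = 3e-10). Dlx2 had 1.19 and 1.12 CPM and 0.495 and 0.618, with a log2 change of −1.04 (SE 0.39, adjusted p = 0.017) and 48.2% of its level remaining. The Dlx2 call was lost when either untreated library (adjusted p = 0.081 and 0.057) or Cop1 KO replicate 1 (0.11) was left out and in DESeq2 (0.14); over all alternatives its adjusted p ran from 0.0042 to 0.14. Dlx5 did not pass the filter, with 21 counts in wild type and 0 in the knockout, at least 6.04-fold lower (lower 95% counting limit 3.74). Gad1 and Gad2 encode the enzymes that make GABA. Gad1 had 2.5 and 3.54 CPM in wild type and 0.135 and 0.176 in the knockout, a log2 change of −4.23 (SE 0.60, adjusted p = 1.5e-13). Gad2 had 50 counts against 0, at least 14.4-fold lower (lower limit 10.7), and was called (adjusted p = 7e-08) except on the nRPKM scale (0.063), the highest of its alternatives, which began at 4.1e-12. Sox11, a transcription factor gene of immature neurons, kept 3 of 197 counts, a ratio of 56.6 (95% counting interval 19.1 to 277).

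Adhesion and guidance genes included the gene that rose. L1cam, an immunoglobulin-type adhesion gene of axons (chromosome X, 73853778 to 73880838), had 9.68 and 8.83 CPM in untreated wild type, 17.7 and 20.6 in Cop1 KO, and 6.2 and 5.31 with LPS. In GENCODE M21, 1.36% of its exonic bases overlap Arhgap4 on the same strand. The groups of L1cam did not overlap, and it was 2.07-fold higher in the knockout (log2 change 1.05, SE 0.10, adjusted p = 4.3e-13), called under each alternative run. The related Nrcam had 95.3 and 97.7 CPM in wild type and 26.4 and 28.3 in the knockout, a log2 change of −1.82 (SE 0.06, adjusted p = 3.9e-34) that left 28.4% of its level. Ncam1 had 64.3 and 64.6 CPM and 5.31 and 6.57, a log2 change of −3.44 (SE 0.10, adjusted p = 6e-38). Robo2, a receptor for the repellent Slit, fell by 3.03 (SE 0.38). Cntn2, which encodes an axonal adhesion protein, did not pass the filter and had 11 and 3 counts, a ratio of 3.16 whose interval, 0.835 to 17.7, includes no difference. L1cam counts per Tubb3 count went from 0.668 and 0.612 to 17.9 and 27.5, and Nrcam counts per Tubb3 count from 6.58 and 6.77 to 26.7 and 37.8.

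**Figure D3:**
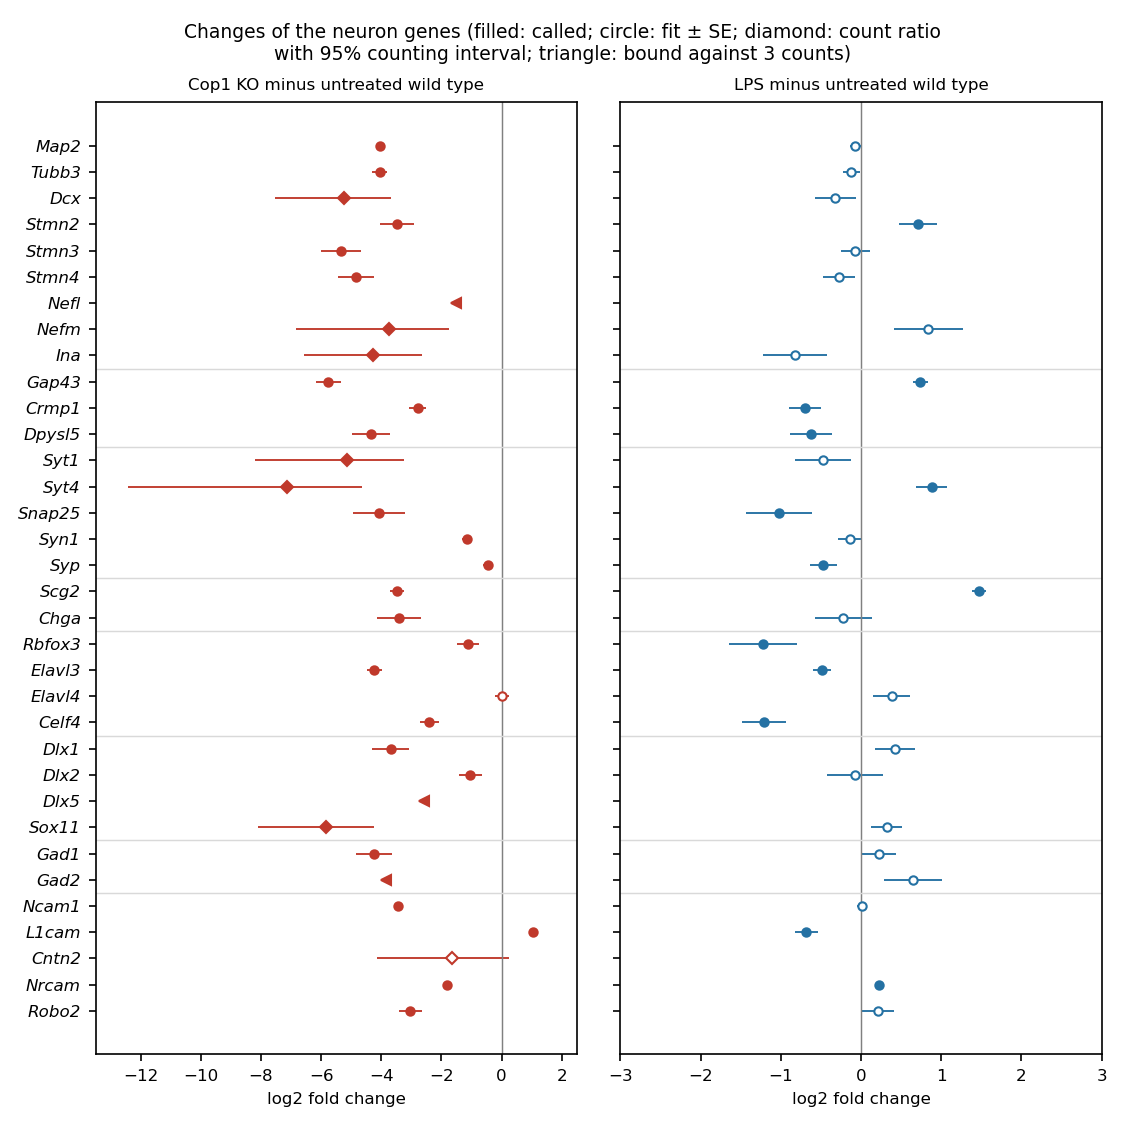
Log2 fold change of each neuron gene in Cop1 KO (left) and with LPS (right) against the same untreated wild-type libraries; circles show the fit with its SE, diamonds count ratios with 95% counting intervals for genes at 1 to 3 counts, triangles bounds against 3 counts, and filled symbols called genes. On the left L1cam, at 1.05, lies alone to the right of 0 beyond its error, and on the right values run from −1.22 to 1.47.

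The second comparison asked how LPS changed the neuron genes in wild-type cells. They did not move together: Scg2, Syt4, Gap43, Stmn2 and Nrcam were called higher, while Rbfox3, Celf4, Snap25, Crmp1, L1cam, Dpysl5, Elavl3 and Syp were called lower. With TMM factors, 5 of 31 genes tested were higher, 8 lower and 18 uncalled, beside 30.2% higher and 43.4% lower over all genes. The share of calls with these factors was thus below that of all genes in both directions. Of the members, 22 lay under 1 nRPKM on average in untreated wild type, and low counts make a call harder. The lower share of calls is therefore no measure of a weaker response. None of the 31 was lower or higher by at least 4-fold, against 5.7% and 7.72% of all genes. The direction of the group as a whole depended on the scaling. With TMM factors the members' median log2 fold change was −0.07 and that of all genes −0.18. With median-of-ratios factors these were 0.07 and −0.04, and with library size only −0.64 and −0.74. Relative to the median of all genes, the members stood at 0.11, 0.11 and 0.10. Their nearness was fixed beforehand, because a change of scaling shifts all genes alike. Their summed level was 362 and 364 CPM with LPS against 328 and 333 in wild type, but 291.5 and 293.2 against 391.2 and 395.7 per 1000000 unscaled counts.

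The counts called moved with the scaling in the same way. With median-of-ratios factors 11 of the 31 were higher and 6 lower, beside 35.8% and 36.4% of all genes. With library size only 1 was higher and 19 lower, beside 17.2% and 69.1%. Scg2 was higher, and Celf4 and L1cam were lower, in each of 5 settings (3 scalings, DESeq2, and limma on nRPKM). Nrcam, at 0.22 with TMM factors (SE 0.05, adjusted p = 3.8e-05), was at −0.35 with library size only. Ratios between neuron genes within a library are free of scaling, and Tubb3, chosen as denominator after its values were seen, had a log2 change of −0.12 (SE 0.11, adjusted p = 0.31). Astrocyte markers in the same libraries summed to 1200 and 1210 CPM with LPS against 1100, with 5 of 12 higher and 2 lower, and neuron counts per astrocyte marker count were 0.304 and 0.298 against 0.297 and 0.301. Per microglia marker count they were 0.0566 and 0.0572 against 0.0425 and 0.0433, and per oligodendrocyte lineage count without Mbp 0.974 and 1.01 against 1.41 and 1.44. This last ratio leans on 1 gene, Cnp, which was called higher with LPS (log2 change 1.92, SE 0.04). Cnp held 4094 of 6690 and 3650 of 5958 of those lineage counts with LPS. In untreated wild type it held 1497 of 5885 and 1583 of 6178.

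Of the genes called higher with LPS, Scg2 had the largest log2 change with TMM factors. It had 10.8 and 11.5 CPM in untreated wild type and 31.5 and 30.5 with LPS, 2.78-fold higher (log2 change 1.47, SE 0.09, adjusted p = 7e-21), and 0.91 with library size only. Per Tubb3 count it went from 0.745 and 0.798 to 2.48 and 2.19. Chga, the other granule gene, had a log2 change of −0.22 (SE 0.36, adjusted p = 0.59). Gap43 had 15.7 and 16.4 CPM in wild type and 26.9 and 26.7 with LPS (0.74, SE 0.09, adjusted p = 1.2e-10). With library size only Gap43 stood at 0.18 (adjusted p = 0.059), while per Tubb3 count it went from 1.08 and 1.13 to 2.12 and 1.91. Syt4 had 2.86 and 3.35 CPM and 5.59 and 5.91 (0.88, SE 0.19, adjusted p = 4.2e-05; 0.32 and 0.11 with library size only). Its counts per Tubb3 count were 0.197 and 0.233 and then 0.441 and 0.424, although in GENCODE M21 14.5% of its exonic bases overlap an antisense gene. Stmn2 had 2.18 and 1.9 CPM and 3.46 and 3.2 (0.71, SE 0.24, adjusted p = 0.0068). The Stmn2 call was lost with library size only (0.15, adjusted p = 0.56), without untreated replicate 2 (0.61, 0.069) and without LPS replicate 1 (0.65, 0.061).

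Of the 4 RNA-binding genes 3 were called lower with LPS, beside the 43.4% of all genes, and 2 of these calls (Rbfox3 and Elavl3) were lost in DESeq2. Celf4 had 3.73 and 3.39 CPM in untreated wild type and 1.23 and 1.87 with LPS, a log2 change of −1.21 (SE 0.27, adjusted p = 3.8e-05). Per Tubb3 count it went from 0.258 and 0.235 to 0.0969 and 0.134. Elavl3 had 14.7 and 15.5 CPM and then 11.1 and 10.4 (−0.49, SE 0.11, adjusted p = 8e-05), and DESeq2 gave 0.065. Rbfox3 had 0.447 and 0.724 CPM with LPS (−1.22, SE 0.42, adjusted p = 0.0055) and was not called without untreated replicate 2 (−1.08, 0.059), without LPS replicate 1 (−0.91, 0.11) or with DESeq2 (0.1).

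Snap25 had 0.447 and 1.15 CPM with LPS against 1.39 and 1.79, on 27 and 83 counts (−1.02, SE 0.41, adjusted p = 0.018). It was not called without LPS replicate 1 (−0.47, adjusted p = 0.37) or untreated replicate 2 (−0.82, 0.16), with DESeq2 (−0.86, 0.22) or on the nRPKM scale (0.062), and stood at −1.82 without LPS replicate 2. L1cam fell by 0.68 (SE 0.14, adjusted p = 1.4e-05), where it had risen in Cop1 KO against the same wild-type libraries. Crmp1 fell by 0.70 (SE 0.20, adjusted p = 0.0012), with 0.099 in DESeq2. Dpysl5, at −0.62 (SE 0.26, adjusted p = 0.028), and Syp, at −0.47 (SE 0.17, adjusted p = 0.011), were not called with median-of-ratios factors (adjusted p = 0.091 and 0.077). Dpysl5 was also not called without untreated replicate 2 (0.23) or LPS replicate 1 (0.18), nor Syp without untreated replicate 1 (0.11) or LPS replicate 2 (0.086). Map2 and Tubb3 were not called with TMM factors: Map2 was at −0.07 (SE 0.07) and Tubb3 at −0.12, and neither were Gad1 (0.22, SE 0.22), Dlx2 (−0.07, SE 0.35) or Ncam1 (0.01, SE 0.06). Calls appeared for Elavl4 (0.67, adjusted p = 0.038) and Stmn4 (−0.51, 0.043) without untreated replicate 2, for Ina (−1.04, 0.048) without untreated replicate 1, and for Gad2 (1.13, 0.017) without LPS replicate 1.

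**Figure D4:**
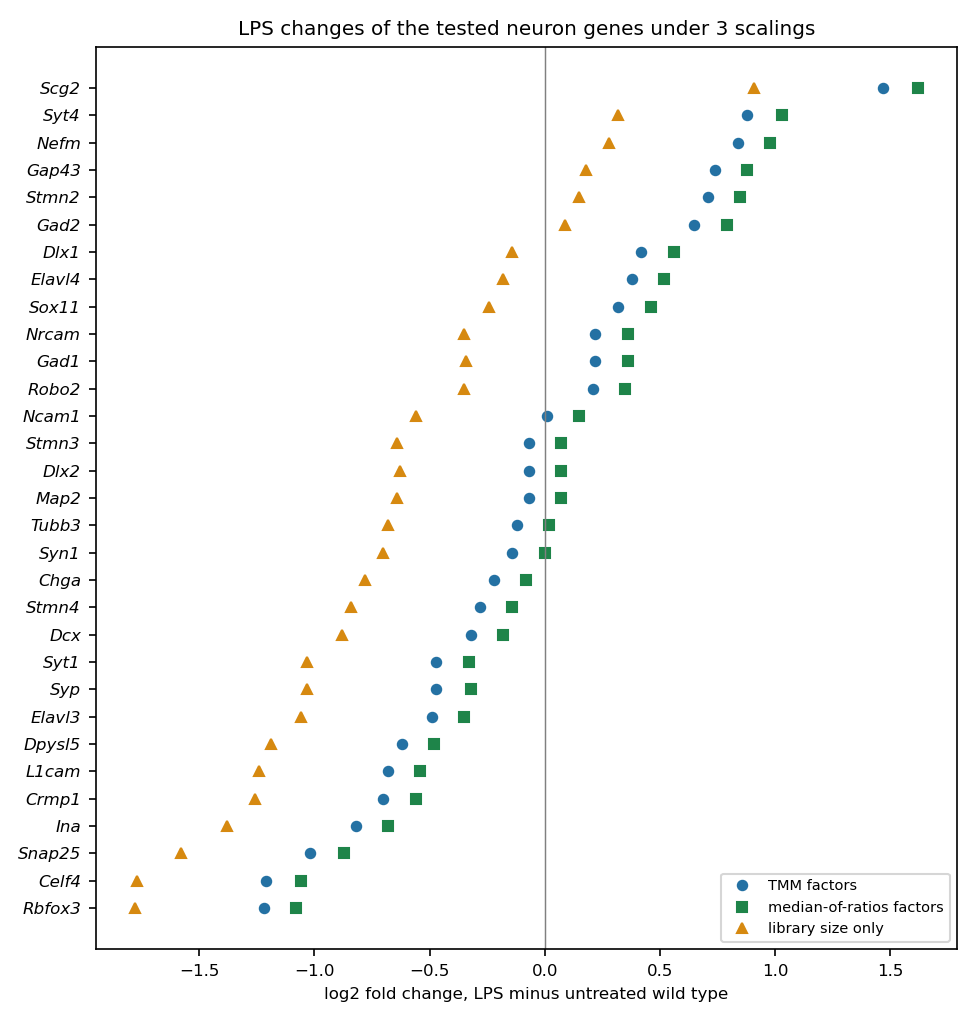
Log2 fold change with LPS against untreated wild type for the 31 tested neuron genes under TMM factors (circles), median-of-ratios factors (squares) and library size only (triangles). The scalings shift all genes together, so Map2 moves from 0.07 through −0.07 to −0.64, while Scg2 stays above 0 and Celf4 below 0 in all 3.

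Set against LPS-treated cells directly, Cop1 KO libraries again held lower levels of most neuron genes. Of 31 genes 27 were lower and 1, L1cam, was higher, with 24 lower by at least 4-fold, beside 39.6%, 39.9% and 15.6% of all genes, and none was higher by at least 4-fold, against 5.51%. This comparison shares its knockout libraries with the first and its LPS libraries with the second. The log2 fold change of Scg2 was −4.94 (SE 0.22) and that of Gap43 −6.50 (SE 0.41), and L1cam was higher by 1.73 (SE 0.13, adjusted p = 1.7e-18). Syp (0.01, SE 0.18), Rbfox3 (0.10, SE 0.48) and Elavl4 (−0.38, SE 0.24) were not called. Dlx2 (−0.98, SE 0.42, adjusted p = 0.029) was not called without Cop1 KO replicate 1 (0.14) or LPS replicate 1 (0.2), and Celf4 (−1.20, SE 0.37, adjusted p = 0.0022) not without LPS replicate 2 (0.074).

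Other neuronal genes, in 6 further lists, went largely the same way in Cop1 KO, with exceptions among the abundant ones. Of all genes tested, 30.3% were called lower and 28.1% higher there. The genes named are among the 3 with the highest mean level in each list. Of 12 further interneuron genes 7 were tested, 6 lower and 1 higher: Reln, the gene of the secreted positioning signal reelin, had a log2 change of −5.01 (SE 0.24) and Erbb4, a neuregulin receptor gene, −4.77 (SE 0.50). Npy, which encodes neuropeptide Y, rose by 1.70 (SE 0.07), from 15.4 and 16.2 CPM to 50.2 and 52.3, with no overlap. Of 12 glutamatergic neuron genes 4 were tested, 2 lower and 1 higher: Camk2a, uncalled, stood at −0.29 (SE 0.25, adjusted p = 0.34), and Bcl11b had 25 counts against 0, at least 7.19-fold lower.

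Of 10 tested further cytoskeleton genes 9 were lower and 1 higher, among them Dpysl3 at −3.94 (SE 0.10), Tubb2a at −0.84 (SE 0.06) and Dpysl2 at 0.47 (SE 0.05). Of 12 vesicle release genes 10 were lower and 2 uncalled, with Syt11 at −1.05 (SE 0.05) and Vamp2, uncalled, at −0.10 (SE 0.06). All 7 tested ion channel genes were lower, such as the potassium channel gene Kcnc1 at −3.44 (SE 0.39). The calcium channel gene Cacna1b stood at −1.06 (SE 0.32), and the sodium channel gene Scn3a had 74 counts against 2, a ratio of 31.9 (95% counting interval 8.53 to 268). Of 11 further RNA-binding and transcription genes 10 were lower, with Sox4 at −1.23 (SE 0.07) and Nova1 at −1.12 (SE 0.19). The 10 genes of the REST repressor complex had 3 higher and 3 lower, close to the 28.1% and 30.3% of all genes. Their log2 changes lay between −0.34 and 0.41, with Ehmt2 at 0.28 (SE 0.04), Sin3a at 0.28 (SE 0.05) and Kdm1a at −0.15 (SE 0.05).

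With LPS the same lists were mixed, beside 30.2% of all genes called higher and 43.4% called lower. Higher and lower were 0 and 3 of 7 interneuron genes, 0 and 2 of 4 glutamatergic genes, 3 and 5 of 10 cytoskeleton genes and 2 and 8 of 12 vesicle release genes. For ion channels the counts were 0 and 2 of 7, for RNA-binding and transcription genes 2 and 4 of 11, and for the REST complex 2 and 6 of 10. Sox4 was at −2.24 (SE 0.09). Reln fell by 0.29 (SE 0.08), while Npy was at −0.04 (SE 0.09).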

How the data were processed

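Per the labels' protocols, unstranded TruSeq RNA v2 libraries were read single-end. Reads were aligned with GSNAP to GRCm38, per the submitters' processing notes; its version and the gene annotation are not stated there. Per the file headers, the authors deposited a count of uniquely aligned reads for each gene model. The authors also deposited RPKM values adjusted with sample size factors (nRPKM), per the file headers.

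Identifiers were named from RefSeq (31049 of 36528); unnamed models held 1.075% to 1.307% of counts. Counts were analysed with edgeR 4.0.16 in R 4.3.3 (filterByExpr, TMM, 1 quasi-likelihood fit of all 6 libraries with group means, 3 residual degrees of freedom, common dispersion 0.000732). The fit was run on simulated data. Its changed genes had no low wild-type counts and changed by at most 4-fold, so that run does not cover members with few counts. SEs come from the fit's weights; intervals are 1.96 SE. Groups follow the treatment labels; replicate numbers follow accession order and pair nothing. Libraries of a group were compared by chi-square over genes and differed beyond counting noise (1.579 to 2.472 per degree of freedom). Alternatives used other factors, no filter, DESeq2 1.42.0, limma 3.58.1 on log2(nRPKM + 1), only the compared groups, and each library left out. A gene at 0 counts in a group is compared with a floor of 3 counts over that group; genes with 1 to 3 counts have exact counting intervals. Exon overlap is from GENCODE M21. The text names all 34 members and, from each further list, genes among the 3 with the highest mean CPM; some of these are not reported here. The members and lists were chosen with earlier results of these data known.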

Additional observations from a re-analysis of the deposited data

How the results depend on the processing

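In Cop1 KO against untreated wild type, counts of members lower, higher and lower by at least 4-fold stayed within 1.5 times of 29, 1 and 24 under the count-based alternatives, and leaving out 1 library gave 27 to 30, 1 and 24 to 25. On the log2(nRPKM + 1) scale, whose added 1 shrinks low genes, 2 members were lower by at least 4-fold, and 3 in Cop1 KO against LPS. Without 1 library that last comparison gave 27 to 28 lower, 1 higher and 24 to 25 lower by at least 4-fold, and with library size only 2 were higher. In LPS against untreated wild type (8 lower, 5 higher), library size only gave 19 lower and 1 higher, beside 69.1% and 17.2% of all genes. DESeq2 gave 2 lower (30.5% of all genes), and the nRPKM scale 5 lower and 9 higher (34.6% and 35.8%). Median-of-ratios factors and only the 2 groups compared gave 11 higher each (35.8% and 36.7%). Leaving out 1 library there gave 5 to 8 lower, with 5 without LPS replicate 1, 5 higher, and 0 lower by at least 4-fold. The LPS median of the members, −0.07, was 0.07 with median-of-ratios factors, with only the 2 groups compared and with DESeq2, and 0.04 on the nRPKM scale. With library size only the LPS value of Ncam1 was −0.56 and that of Nrcam −0.35. Among values of single members under an alternative, 13 of the Cop1 KO comparison lost their call; with LPS 27 lost it, 30 gained one and 2 reversed. Apart from the shifts of scaling and the added 1, the cause was not tested. No paired analysis was possible because the labels carry no replicate numbers. In Cop1 KO, 26 members were under 1 CPM in both libraries, so depth limits how far they fell.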
